A study of Homo sapiens with 6 samples.

Results

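The autophagy machinery was examined gene by gene in Mec-1 cells as a set of 45 genes named for their known part in building the autophagosome. They were taken in the order initiation, lipid kinase, membrane supply (WIPI genes included), conjugation, LC3 family, cargo receptors and TFEB factors. Every probe annotated to 1 of these symbols was taken, which gave 68 of the 47321 probes with a value and covered all 45 genes. A gene was tested if at least 1 of its probes was detected on at least 3 of the 6 arrays, and 44 of the 45 genes met this, among 10832 genes tested in all. Mec-1 is a human line of malignant B cells that resembles chronic lymphocytic leukaemia and is labelled as positive for SLAMF1 (CD150), a receptor of lymphocytes. In 3 samples the cells had been transfected with a short hairpin RNA (shRNA) against SLAMF1 in the pGFP-V-RS construct, and in the other 3 with a scrambled shRNA cassette. Both sets were grown in vitro in complete medium. The design text calls the 3 samples of a set biological replicates without saying whether separate clones or cultures were used, and the p-values cover the spread among these samples, which may be technical. The extraction text in the labels speaks of leukemic cells that were purified, although the samples are labelled as the line. All 6 arrays shared 1 chip, on which the samples labelled SLAMF1 shRNA took the last 3 places and control samples the first 3, so that place and group cannot be told apart.

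Autophagy is the route by which a cell encloses part of its cytoplasm in a new membrane and delivers it to the lysosome. The ULK kinase complex starts the process, and the lipid kinase PIK3C3 (VPS34) with its partners marks the site with phosphatidylinositol 3-phosphate. WIPI proteins bind that lipid, ATG2 and ATG9 supply membrane, and a pair of ubiquitin-like conjugation systems attach LC3 and GABARAP proteins to the growing membrane, where cargo receptors bind them. Transcription of many of these genes and of lysosome genes can be raised by TFEB and TFE3. In B cell leukaemia, autophagy is studied as a survival route under stress and treatment.

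Transcripts were measured by hybridisation of biotin-labelled cRNA to Illumina beadchips, and levels are given as background-corrected, quantile-normalized log2 intensity. Between 17192 and 19586 probes were detected per array. The SLAMF1 transcript was not lower where its shRNA was labelled: its log2 levels were 8.70, 8.44 and 8.64 on the arrays labelled SLAMF1 shRNA and 8.26, 8.38 and 8.01 on those labelled control shRNA, a difference of 0.38 (SE 0.18, limma adjusted p = 0.153). Without replicate 2 of the arrays labelled SLAMF1 shRNA, SLAMF1 was higher there (0.46, adjusted p = 0.0489). Read by 1 probe, the transcript therefore showed no fall to match the label (95% interval -0.03 to 0.79). Every direction below is that of the labels. Replicate 2 of the arrays labelled SLAMF1 shRNA stood apart, with correlations of 0.928 and 0.942 to its own replicates, against 0.994 between those and 0.981 to 0.992 among control replicates (across tested genes, which are not independent replicates). For the autophagy genes, values without it are given where they change a call or move a difference by over 1.5 times. Of 5 B cell markers with a probe, 4 were detected on at least 3 arrays (MS4A1, CD79A, CD79B and CD22) and PAX5 was not, while of 5 T cell markers 1 was (CD2, -0.08) and CD3D, CD3E and CD5 were below detection on all arrays. Summed over the markers with a probe, B cell levels were 41.84 to 42.09 (log2) on the arrays labelled SLAMF1 shRNA, against 36.71 to 37.83 on control arrays, NK cell levels 19.17 to 21.52, against 17.23 to 17.75, T cell levels 21.40 to 21.87, against 21.40 to 21.93, monocyte levels 22.23 to 22.96, against 22.28 to 22.91, and fibroblast levels 17.03 to 17.27, against 17.27 to 17.68. The B cell markers went both ways, with CD79A (1.93), CD79B (1.83) and CD22 (2.37) higher and MS4A1 lower (-1.45, adjusted p = 0.0422). MS4A1 gave -0.91 without replicate 2. Of the NK cell markers, NKG7 (1.98) was higher and KLRF1 (0.56) did not pass, while KLRD1 and NCAM1 were not detected often enough to be tested. The monocyte markers also differed, with CSF1R higher (0.82) and ITGAM (-0.37) and LYZ (-0.30) not called. CD14 and FCGR1A were not detected often enough to be tested. The part of these markers in the results was not tested. In a bulk sample, fewer cells of a kind and less RNA per cell cannot be told apart.

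On the arrays labelled SLAMF1 shRNA, 8 of the 44 tested autophagy genes were higher than on control arrays and 3 were lower (limma, Benjamini-Hochberg adjusted p under 0.05 over all genes tested). The called share of the set was 25%, against 24.6% of all genes tested, so the set as a whole was called about as often as the array. By direction, 18.2% of the set was higher, against 12.9% of all genes, and 6.82% was lower, against 11.7%. The set's median log2 fold change was 0.20, against 0.02 for all genes tested. The members were chosen with earlier results of these data known, so these comparisons with all genes cannot serve as a test of the set. The 8 higher genes were WIPI1, WIPI2, WDR45 and ATG2A of the membrane supply step, ATG12 of the conjugation systems, MAP1LC3B of the LC3 family, and the cargo receptors OPTN and CALCOCO2. The 3 lower genes were the lipid kinase PIK3C3 and the conjugation genes ATG5 and ATG16L1. None of the initiation genes and neither TFEB factor passed the threshold.

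**Figure D1:**
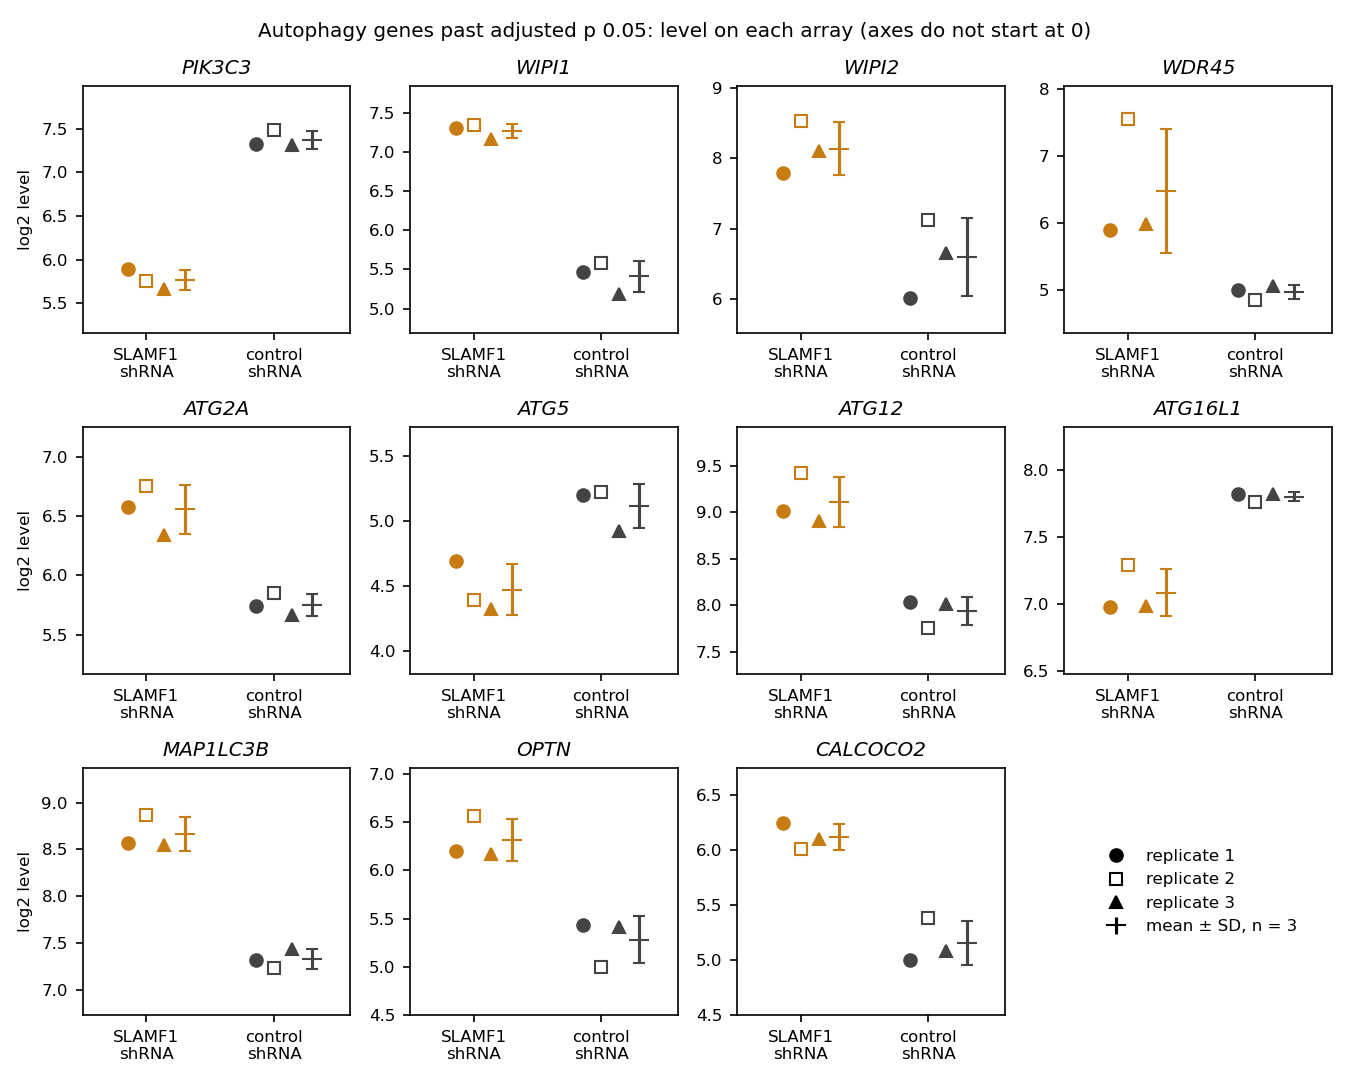
Log2 level of each of the 11 autophagy genes past the threshold on each array, with the arrays labelled SLAMF1 shRNA on the left and those labelled control shRNA on the right of each panel; symbols mark replicates and bars the mean ± SD (n = 3). In all 11 panels the groups do not overlap, and for WDR45 replicate 2 of the arrays labelled SLAMF1 shRNA lies apart at 7.55.

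The membrane supply step, which includes the WIPI genes, held the most calls. In it, 4 of 9 genes were higher and 0 lower, with a median log2 fold change of 0.80. The called genes WIPI1, WIPI2 and WDR45 belong to the WIPI family, and only ATG2A lies outside it. WIPI1, a propeller protein that binds phosphatidylinositol 3-phosphate on the forming autophagosome, had log2 levels of 7.30, 7.34 and 7.16 in the arrays labelled SLAMF1 shRNA and 5.47, 5.58 and 5.19 in those labelled control shRNA. The groups lay far apart with little spread in either. This was a 3.61-fold rise (log2 fold change 1.85, SE 0.17, limma adjusted p = 0.000309). WIPI2, the family member that recruits ATG16L1 to the membrane, had log2 levels of 7.79, 8.53 and 8.10 in the arrays labelled SLAMF1 shRNA, against 6.02, 7.13 and 6.66 in the control arrays. It rose by 1.54 on the log2 scale (SE 0.31, adjusted p = 0.00996), with a wider spread in both groups than WIPI1. A second WIPI2 probe was not detected on any array.

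WDR45 (WIPI4), which links ATG2 to the membrane, had log2 levels of 5.90, 7.55 and 5.98 in the arrays labelled SLAMF1 shRNA and 5.0, 4.85 and 5.05 in the control arrays. All of the first group lay above the second, and replicate 2 lay furthest out. The log2 fold change was 1.51 (SE 0.41, adjusted p = 0.0315), and 0.97 without replicate 2 (adjusted p = 0.000447). Leaving out control replicate 1 (adjusted p = 0.101), 2 (0.107) or 3 (0.101) ended the call. So did uncorrected background (0.118), a background offset of 50 (0.0866), use of the second deposited table (0.117) and keeping all dim probes (0.106). A second detected WDR45 probe gave 0.44 (SE 0.18), a smaller difference that did not pass in the fit of all probes (adjusted p = 0.137, with 18.7% of all probes called). The close relative WDR45B (WIPI3) gave -0.17 with a 95% interval of -0.76 to 0.41, and whether its response differed from those of the other WIPI genes was not tested.

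ATG2A, a lipid transfer protein that feeds the growing membrane, had log2 levels of 6.58, 6.75 and 6.34 in the arrays labelled SLAMF1 shRNA and 5.74, 5.85 and 5.67 in those labelled control shRNA. Its log2 fold change was 0.80 (SE 0.18, adjusted p = 0.0136), a call lost with median centring (0.57, adjusted p = 0.101) and without control replicate 3 (0.0703). Its paralog ATG2B, near the detection limit, gave -0.27 (95% interval -0.64 to 0.10). ATG9A, the scramblase of the vesicles that seed the membrane, was higher on every array labelled SLAMF1 shRNA (6.79, 8.33 and 6.97) than on the control arrays (6.25, 6.72 and 6.65) without passing the test (0.82, SE 0.39, adjusted p = 0.161), and gave 0.34 without replicate 2 of the first set. ZFYVE1 (DFCP1), a marker of the membrane site where autophagosomes form, gave 0.61 (adjusted p = 0.0884) and passed without replicate 2 of the arrays labelled SLAMF1 shRNA (0.60, adjusted p = 0.0493) and without control replicate 2 (0.83, 0.0406). A second ZFYVE1 probe gave 0.06. VMP1, a scramblase of the endoplasmic reticulum, gave 0.01 (95% interval -0.37 to 0.39).

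The start regions of WIPI1 and MAP1LC3B are shown as examples. Both genes were higher in every alternative, as were WIPI2, ATG12 and OPTN, whose start regions are not shown. The RefSeq promoter table (build GRCh38.p14) held 53 windows for 40 of the 45 genes, each reaching from 250 bases before to 50 after a start, and 35116 windows in all. The windows were searched on both strands for CACGTG, the E-box bound by TFEB and TFE3, for TGATGNAA, a composite element bound by ATF4, and for GTAAACA, a FOXO element. The windows of WIPI1 and MAP1LC3B held none of these and are therefore in lower case throughout, with a G+C content of 79.7% and 75.7%, against a median of 58.7% over all windows.
WIPI1 (chr17:68457447-68457746, minus strand): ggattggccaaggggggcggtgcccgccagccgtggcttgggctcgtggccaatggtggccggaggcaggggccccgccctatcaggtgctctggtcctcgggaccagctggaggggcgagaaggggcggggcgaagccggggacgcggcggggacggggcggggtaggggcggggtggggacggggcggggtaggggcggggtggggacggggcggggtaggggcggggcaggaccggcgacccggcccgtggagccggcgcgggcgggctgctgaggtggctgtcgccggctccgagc
MAP1LC3B (chr16:87392086-87392385, plus strand): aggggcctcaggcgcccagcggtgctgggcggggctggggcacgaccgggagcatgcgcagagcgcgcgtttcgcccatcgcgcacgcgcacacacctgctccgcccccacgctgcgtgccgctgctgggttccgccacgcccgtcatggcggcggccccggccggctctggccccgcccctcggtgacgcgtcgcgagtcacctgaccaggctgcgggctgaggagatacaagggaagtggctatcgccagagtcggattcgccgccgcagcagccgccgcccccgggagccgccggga

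Matches among the autophagy genes were few, and the stretches that hold them are given with the motif in capitals. CACGTG lay in windows of ATG3, ATG14 and ULK3, which is 5.66% of the set's windows, against 7.26% of all windows. None of these 3 genes passed the test, and none of the 8 higher genes had the motif. TGATGNAA was found only in a window of WDR45 (1.89% of the set's windows, against 3.62% of all), and GTAAACA in windows of WDR45 and CALCOCO2 (3.77%, against 3.42%). The 2 matches in WDR45 overlap each other, and each has a line of its own. A match is a run of letters and says nothing on binding in these cells.
ATG3 (chr3:112561965-112561990, minus strand): tttctcacgtCACGTGccgggagagt
ATG3 (chr3:112561942-112561967, minus strand): agtctagtgtCACGTGaggccccggt
ATG14 (chr14:55411836-55411861, minus strand): aacaaaatccCACGTGactggctctc
ULK3 (chr15:74843313-74843338, minus strand): tccgtatcccCACGTGggccctgcag
WDR45 (chrX:49079876-49079903, minus strand): aagtagggccTGATGTAAacacccgagc
WDR45 (chrX:49079873-49079899, minus strand): agggcctgatGTAAACAcccgagccgg
CALCOCO2 (chr17:48830799-48830825, plus strand): aaaaagaaaaGTAAACAgcttcttcca

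The initiation step showed no call among 5 tested genes. ULK1, the kinase that receives the signals of mTORC1 and AMPK, had log2 levels of 9.23, 8.38 and 9.28 in the arrays labelled SLAMF1 shRNA and 7.69, 8.47 and 8.07 in those labelled control shRNA. The groups overlapped through replicate 2 of each. Its log2 fold change was 0.89 (SE 0.30, adjusted p = 0.0663), and a second probe gave 0.90. It passed without replicate 2 of the arrays labelled SLAMF1 shRNA (1.18, adjusted p = 0.000967) and with cyclic loess (0.92, 0.0475).

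ATG13, the scaffold of the ULK complex, had log2 levels of 4.97, 5.78 and 5.06 in the arrays labelled SLAMF1 shRNA and 4.42, 4.72 and 4.35 in the control arrays, a difference of 0.77 that did not pass (SE 0.25, adjusted p = 0.0559). It passed in 5 alternatives, among them without replicate 1 (0.92, adjusted p = 0.0443) or 2 (0.52, 0.0300) of the arrays labelled SLAMF1 shRNA and under a block on replicate number (0.0462). RB1CC1 (FIP200), which joins the complex to its cargo, gave 0.28, and 0.45 without replicate 2 (adjusted p = 0.0421). ATG101, which stabilises ATG13, had log2 levels of 6.42, 7.93 and 6.52 in the arrays labelled SLAMF1 shRNA, against 7.04, 6.90 and 7.02 in the control arrays. Replicates 1 and 3 lay below all control values and replicate 2 above them, so that the difference was -0.03 with all arrays and -0.51 without replicate 2 (adjusted p = 0.0205). ULK3 gave 0.39 (adjusted p = 0.296). ULK2 was detected on 2 arrays labelled SLAMF1 shRNA and 0 control arrays and was not tested.

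The lipid kinase step had 1 lower gene, 0 higher and a median log2 fold change of -0.47 over 7 tested. PIK3C3, the catalytic subunit, had log2 levels of 5.89, 5.76 and 5.66 in the arrays labelled SLAMF1 shRNA and 7.32, 7.49 and 7.31 in those labelled control shRNA. The groups were tight and separate. The gene was 3.03-fold lower (log2 fold change -1.60, SE 0.16, limma adjusted p = 0.000405) and kept its call in all 17 alternatives. Its regulatory subunit PIK3R4 (VPS15) read 6.22, 4.95 and 6.11 in the arrays labelled SLAMF1 shRNA and 6.29, 6.80 and 6.44 in the control arrays, a difference of -0.75 that did not pass (adjusted p = 0.147) and was -0.34 without replicate 2.

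BECN1 (Beclin 1), the scaffold of the kinase complex that BCL2 can bind, had log2 levels of 8.03, 7.23 and 8.14 in the arrays labelled SLAMF1 shRNA, against 8.72, 8.20 and 8.14 in the control arrays. The lowest control value equals the highest of the other group, and the 95% interval of the difference ran from -1.21 to 0.11. Of the subunits that set where the complex acts, ATG14 gave -0.10 (95% interval -0.85 to 0.64) and UVRAG 0.20 (-0.37 to 0.77). RUBCN (Rubicon), an inhibitor of the UVRAG complex, gave -0.47 (adjusted p = 0.225). AMBRA1, which activates the complex, was higher on all arrays labelled SLAMF1 shRNA (5.13, 5.42 and 4.69) than on the control arrays (4.53, 4.66 and 4.50), with 0.52 and an adjusted p of 0.117.

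Conjugation genes went both ways, with 1 of 11 higher, 2 lower and a median of -0.06. ATG12, the ubiquitin-like protein that is joined to ATG5, had log2 levels of 9.02, 9.42 and 8.91 in the arrays labelled SLAMF1 shRNA and 8.04, 7.76 and 8.01 in those labelled control shRNA, a 2.26-fold rise (log2 fold change 1.18, SE 0.19, adjusted p = 0.00418). A second probe of ATG12 gave 1.04 and also passed in the fit of all probes (adjusted p = 0.0438). Its partners moved the other way. ATG16L1, which carries the ATG12-ATG5 conjugate to the membrane, had log2 levels of 6.98, 7.29 and 6.99 in the arrays labelled SLAMF1 shRNA and 7.82, 7.76 and 7.82 in the control arrays.

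The difference for ATG16L1 was -0.72 (SE 0.16, adjusted p = 0.0170), and a second probe gave -0.95 (adjusted p = 0.0297 in the fit of all probes). The call ended without replicate 1 (adjusted p = 0.0535) or 3 (0.0723) of the arrays labelled SLAMF1 shRNA, without control replicate 1 (0.0515), 2 (0.0580) or 3 (0.0763), and under a block on replicate number (0.0517), at log2 fold changes of -0.74 to -0.67. ATG5 had log2 levels of 4.69, 4.39 and 4.32 in the arrays labelled SLAMF1 shRNA, where it was detected on 1 of 3 arrays, and 5.2, 5.22 and 4.92 in the control arrays, where it was detected on all 3. Its log2 fold change was -0.65 (SE 0.18, adjusted p = 0.0344), measured close to the detection limit.

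The ATG5 call was lost in 9 of 16 alternatives: without replicate 3 of the arrays labelled SLAMF1 shRNA (adjusted p = 0.120), without control replicate 1 (0.0981), 2 (0.120) or 3 (0.0702), with uncorrected background (-0.20, 0.0987), a background offset of 50 (-0.29, 0.0748), values of the second deposited table (-0.20, 0.0984), median centring (0.0528) and a block on replicate number (0.0621). ATG16L2, the paralog of ATG16L1, pointed the other way at 0.58 without passing (adjusted p = 0.115).

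The remaining conjugation enzymes did not pass. ATG7, the activating enzyme of both systems, had log2 levels of 8.58, 8.78 and 8.67 in the arrays labelled SLAMF1 shRNA and 7.67, 8.36 and 8.24 in the control arrays, a separate but uncalled difference of 0.59 (SE 0.22, adjusted p = 0.0837). ATG3, the conjugating enzyme for LC3, gave -0.41 (adjusted p = 0.207) and ATG10, that for ATG12, gave 0.53 (adjusted p = 0.315) by 1 probe, or 0.10 without replicate 2, and -0.11 by another. Of the ATG4 proteases, which trim LC3 and release it from membrane, ATG4C (-0.79, adjusted p = 0.0883) and ATG4B (-0.69, adjusted p = 0.185) were lower on all arrays labelled SLAMF1 shRNA. Replicate 2 was furthest out for both, and without it they gave -0.45 and -0.25. ATG4C passed only without replicate 1 of that set (-1.02, adjusted p = 0.0398) among its 17 alternatives. ATG4A gave -0.06 by 1 probe and -0.33 by another, and ATG4D 0.10 and 0.50, and none of these passed.

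In the LC3 family, 1 of 5 genes was called. MAP1LC3B, the LC3 form used as the common marker of autophagosomes, had log2 levels of 8.57, 8.87 and 8.55 in the arrays labelled SLAMF1 shRNA and 7.32, 7.23 and 7.44 in those labelled control shRNA. This was a 2.53-fold rise (log2 fold change 1.34, SE 0.17, adjusted p = 0.00130) that kept its call in all 17 alternatives. Its probe may also detect the near-identical MAP1LC3B2, whose own probe was not detected often enough to be tested. MAP1LC3A pointed down at -0.49 (adjusted p = 0.102), with levels close to the detection limit. GABARAPL1 read 4.50, 4.35 and 4.41 in the arrays labelled SLAMF1 shRNA and 5.16, 4.67 and 5.11 in the control arrays, a difference of -0.56 that did not pass (adjusted p = 0.0626). It passed without replicate 2 of the arrays labelled SLAMF1 shRNA (-0.53, adjusted p = 0.0389), without control replicate 2 (-0.72, 0.0499) and with trend and robust variance (0.0357). GABARAP (0.27) and GABARAPL2 (0.17) did not pass, with adjusted p of 0.490 and 0.614.

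Of 5 cargo receptors, 2 were higher. OPTN (optineurin), a receptor for damaged mitochondria and bacteria, had log2 levels of 6.20, 6.56 and 6.17 in the arrays labelled SLAMF1 shRNA and 5.43, 5.0 and 5.41 in those labelled control shRNA (log2 fold change 1.03, SE 0.20, adjusted p = 0.00827). CALCOCO2 (NDP52), a receptor for bacteria and mitochondria, had log2 levels of 6.25, 6.01 and 6.10 in the arrays labelled SLAMF1 shRNA and 5.0, 5.38 and 5.08 in the control arrays (0.97, SE 0.18, adjusted p = 0.00647). Both were about 2-fold higher with separate groups, and only median centring ended the CALCOCO2 call among its 17 alternatives (0.78, adjusted p = 0.0880). SQSTM1 (p62), the receptor for ubiquitinated cargo, had log2 levels of 10.67, 10.56 and 10.63 in the arrays labelled SLAMF1 shRNA, against 10.69, 10.80 and 11.06 in the control arrays. Its difference was -0.23 with a 95% interval of -0.62 to 0.16.

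NBR1, a relative of SQSTM1, gave 0.19 with all arrays and 0.53 without replicate 2 of the arrays labelled SLAMF1 shRNA (adjusted p = 0.0492). TAX1BP1, a relative of CALCOCO2, gave 0.35 (adjusted p = 0.221). Of the factors that can raise this set's transcription, TFEB had log2 levels of 5.57, 6.96 and 5.66 in the arrays labelled SLAMF1 shRNA and 5.05, 5.35 and 5.21 in the control arrays. The groups were separate, but replicate 2 lay far above the others, and the difference was 0.86 (adjusted p = 0.116) with it and 0.42 (adjusted p = 0.0612) without it. TFE3 gave 0.01 (95% interval -0.35 to 0.37).

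**Figure D2:**
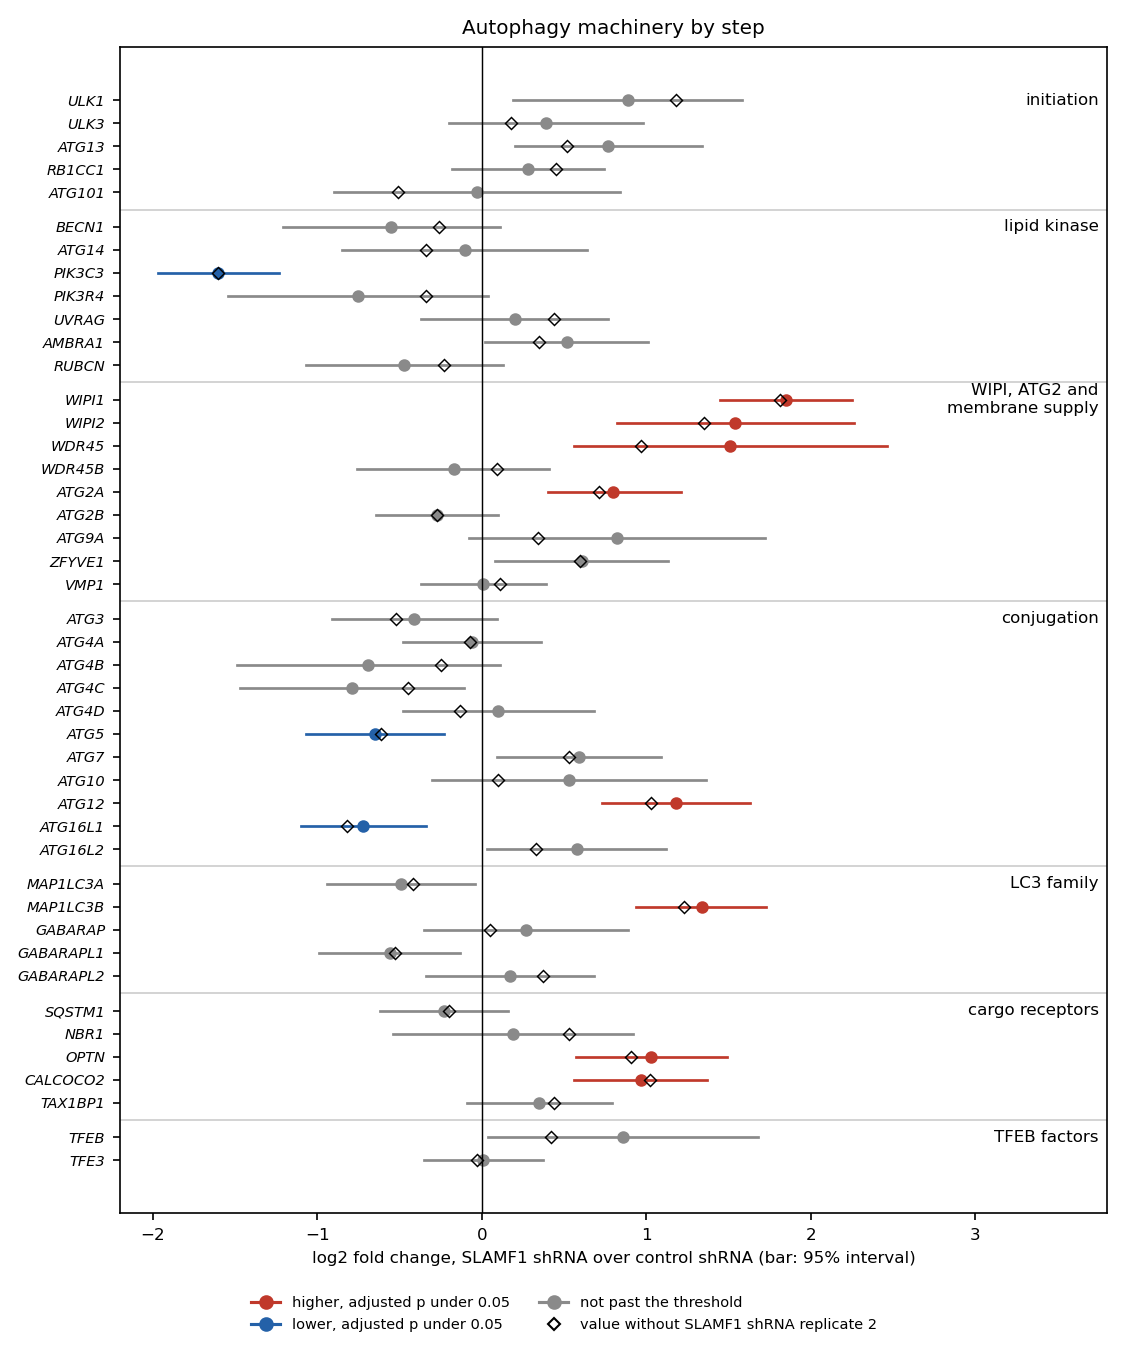
Log2 fold change of the 44 tested autophagy genes, arrays labelled SLAMF1 shRNA over control shRNA, by step; dots and bars are estimates with 95% intervals, red higher and blue lower past the threshold, and open diamonds the value without replicate 2 of the arrays labelled SLAMF1 shRNA. WIPI1 at 1.85 and PIK3C3 at -1.60 are the furthest from 0, and their diamonds lie on or beside their dots.

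The 33 genes not called ranged from -0.79 to 0.89 on the log2 scale. In 15 of them the groups did not overlap, 8 with the arrays labelled SLAMF1 shRNA above and 7 below. Counting the called genes, 16 of 44 lay wholly above and 10 wholly below, against 23.7% and 22% of all genes tested. The spread within the arrays labelled SLAMF1 shRNA had a median SD of 0.37 over the autophagy genes, against 0.19 within the control arrays, and was 0.09 between replicates 1 and 3 alone. Over all genes tested these values were 0.27, 0.18 and 0.1 in that order. Replicate 2 was the furthest from its group's median for 63.6% of the autophagy genes, against 72.1% of all genes tested. Without it the calls were 13 higher and 5 lower, with the 11 genes above all among them, where 36.9% of all genes tested were called, 19.4% higher and 17.4% lower. Among uncalled genes, the difference was smaller without it for BECN1 (-0.26), RUBCN (-0.23), ULK3 (0.18), ATG16L2 (0.33) and GABARAP (0.05), and further from 0 for UVRAG (0.44), ATG14 (-0.34) and GABARAPL2 (0.37), while WDR45B gave 0.09. ATG4D gave -0.13 without it, VMP1 0.11 and TFE3 -0.03. The genes called in addition were ULK1, ATG13, RB1CC1, ZFYVE1 and NBR1 as higher and ATG101 and GABARAPL1 as lower. Of the second probes not yet given, none passed in the fit of all probes, with differences of 0.89 for ATG9A, 0.42 for GABARAPL2, 0.31 for TAX1BP1, 0.15 for UVRAG and -0.06 for ATG3.

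The place of a gene on its chromosome was compared with its change, using up to 12 tested genes on either side in the order of assembly GRCh38.p14. PIK3C3 lies on chromosome 18, and 22 of its 24 neighbours from KLHL14 to SMAD2 had a negative log2 fold change, with 15 called lower and 0 higher and a median of -0.85. ATG5 lies on chromosome 6 between PRDM1 and CRYBG1, and 22 of its 24 neighbours from NDUFAF4 to FOXO3 were negative, with 16 called lower, 1 called higher (PRDM1, 1.09) and a median of -0.77. The change of ATG5 (-0.65) was therefore no larger than the median of its neighbours, and that of PIK3C3 (-1.60) was larger. Over the whole of chromosome 18, 63 of 145 tested genes were called lower and 0 higher, with a median of -0.66. The lower values around PIK3C3 were thus not confined to its neighbours. Over chromosome 6, 124 of 598 were called lower and 92 higher, with a median of -0.02. Of all genes tested, 11.7% were called lower. FOXO3, a transcription factor that can raise autophagy genes, was among the ATG5 neighbours at -3.97. The neighbour medians of the other 42 tested autophagy genes ran from -0.39 to 0.62, with at most 7 neighbours called lower.

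ATG16L1, the remaining lower gene, had neighbours with a median of 0.00, of which 1 was called lower and 2 higher. Of the higher genes, WIPI1 (-0.06), WIPI2 (-0.12), ATG12 (-0.06), MAP1LC3B (0.08), OPTN (-0.16) and CALCOCO2 (-0.01) had neighbour medians close to 0, whereas those of ATG2A (0.38) and WDR45 (0.32) were positive. Without replicate 2 of the arrays labelled SLAMF1 shRNA the neighbour medians were -0.77 for PIK3C3 and -0.72 for ATG5. The part of these neighbourhoods in the 2 lower genes was not tested.

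**Figure D3:**
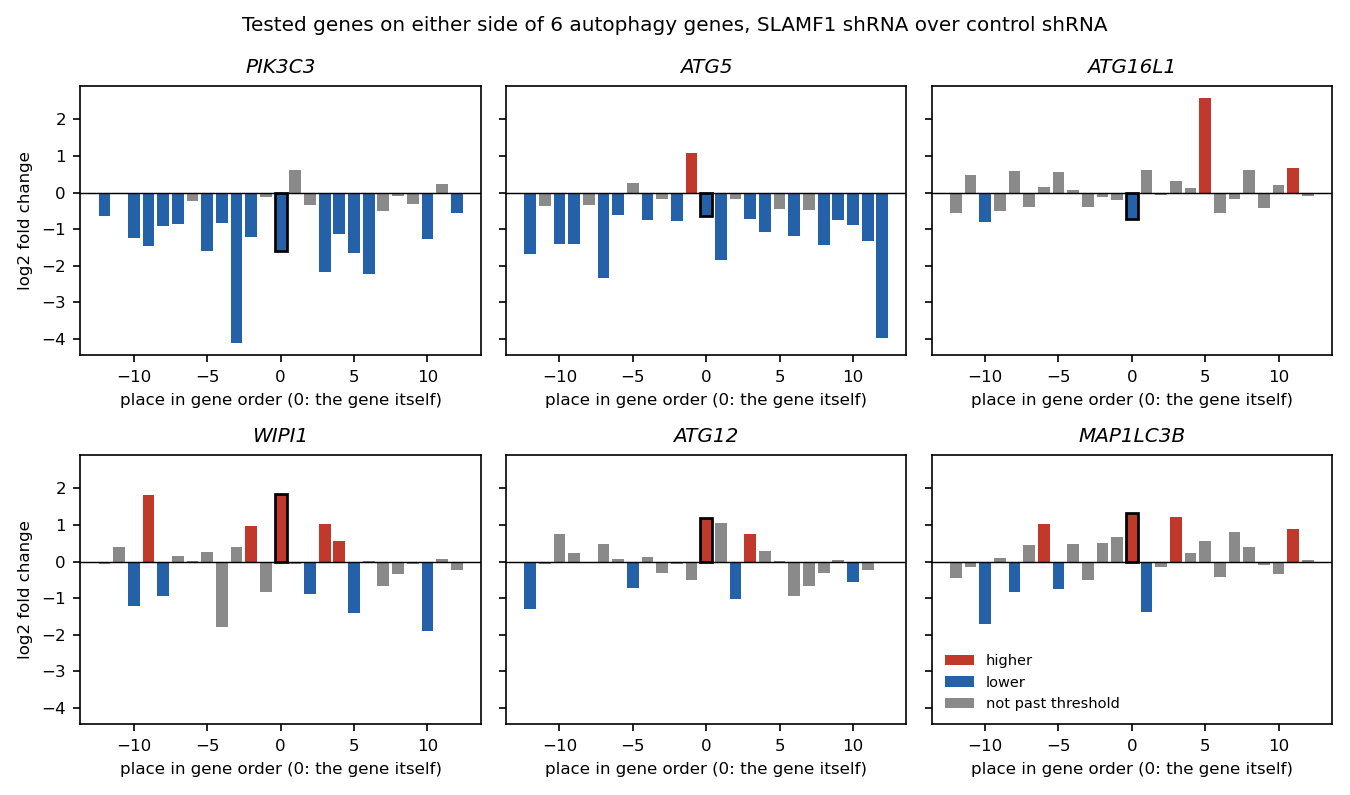
Log2 fold change, arrays labelled SLAMF1 shRNA over control shRNA, of up to 12 tested genes on either side of 6 called autophagy genes in chromosome order; the outlined bar at 0 is the gene itself, red and blue bars passed the threshold as higher and lower. Around PIK3C3 and ATG5, 22 of 24 bars point down, while around ATG16L1, WIPI1, ATG12 and MAP1LC3B the bars go both ways.

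Other genes of the pathway were read from 5 further lists of 129 genes, of which 111 were tested. Of these, 24 (21.6%) were higher and 9 (8.11%) lower, against 12.9% and 11.7% of all genes tested. The lists were chosen with earlier results of these data known, so these shares cannot serve as a test of the pathway. Selective autophagy receptors outside the set gave 5 higher and 1 lower of 16. CCPG1, a receptor for the endoplasmic reticulum, rose by 3.18 on the log2 scale (SE 0.20, adjusted p = 4.7e-05), and RTN3, with a similar role, by 1.25 (SE 0.20). BNIP3 (1.2, SE 0.20) and BNIP3L (1.88, SE 0.44), receptors for mitochondria, were also higher. FUNDC1, another mitochondrial receptor, was not detected on any array labelled SLAMF1 shRNA and was at least 4.22-fold lower (adjusted p = 0.000156), where the bound sets the mean of the brighter group against, per array, the higher of the lowest detected signal and the probe's own. This bound allows for the detection limit and not for the spread among arrays. The 95% interval of the FUNDC1 log2 fold change was -2.63 to -1.80. BNIP3 lost its call with median centring (highest adjusted p over alternatives 0.0595), and BNIP3L in 5 of 17 alternatives, among them without replicate 3 of the arrays labelled SLAMF1 shRNA and without control replicates 1 or 3 (highest 0.101).

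Nutrient control genes, which set ULK1 activity through mTORC1 and AMPK, went both ways with 7 higher and 5 lower of 34. That was 35.3% called, against 24.6% of all genes tested. SESN2 (2.58, SE 0.40) and DDIT4 (2.19, SE 0.20), inhibitors of mTORC1 that are induced by stress, rose most. The Rag GTPase genes, which bring mTORC1 to the lysosome, went both ways. RRAGD (-1.67, SE 0.32) and RRAGA (-1.42, SE 0.16) fell, while RRAGB was higher (0.72, SE 0.17, limma adjusted p = 0.0205). RRAGC gave 0.70 without passing (adjusted p = 0.186). The RRAGB call was lost in 7 of 17 alternatives (highest adjusted p 0.289). CAB39 (-1.25, SE 0.32), a partner of the AMPK kinase STK11, also fell. The CAB39 call was lost in 4 of 17 alternatives, without control replicates 2 or 3, with dim probes kept and under a block on replicate number (highest adjusted p 0.103).

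Among other core regulators, 5 of 14 were higher and 1 lower, or 42.9% called against 24.6% of all genes tested. TP53INP1 (2.15, SE 0.19) and TP53INP2 (1.16, SE 0.18), which bind LC3 proteins, were higher, as were MCL1 (1.19, SE 0.18), a BCL2 relative that can bind Beclin 1, WDR41 (0.85, SE 0.22) and the lipid scramblase gene TMEM41B (0.68, SE 0.18). The MCL1 call was lost when its probes were averaged (0.22, adjusted p = 0.713) and that of TP53INP2 with median centring (0.0525). WDR41 lost its call in 7 and TMEM41B in 6 of 17 alternatives. Both lost it without replicates 1 or 3 of the arrays labelled SLAMF1 shRNA and without control replicates 1 or 3. Both also lost it with median centring and under a block on replicate number, and WDR41 without control replicate 2.

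Lysosome and MiT family genes numbered 5 higher and 1 lower of 22, or 27.3% called against 24.6% of all genes tested. By direction, 22.7% were higher and 4.55% lower, against 12.9% and 11.7% of all genes tested. Without replicate 2 of the arrays labelled SLAMF1 shRNA they numbered 9 and 1, where 19.4% of all genes tested were higher and 17.4% lower. LAMP1, CTSD, ATP6V1A and ATP6V1H were also higher in that fit. The protease genes TPP1 (1.90, SE 0.18) and CTSB (1.47, SE 0.28) were higher in all 17 alternatives. SGSH (1.61, SE 0.42), PSAP (1.13, SE 0.27) and GAA (1.35, SE 0.40) were higher too. GAA was not detected on any control array, and the 95% interval of its difference ran from 0.41 to 2.28. Without replicate 2 of the arrays labelled SLAMF1 shRNA it gave 0.83. SGSH lost its call in 7 of 16 alternatives, GAA in 10 of 16 and PSAP in 3 of 17. Each of these 3 lost it without control replicate 3 and with dim probes kept. SGSH and GAA also lost it without control replicates 1 or 2, and PSAP and GAA without replicate 3 of the other set. Uncorrected background, an offset of 50 and the second deposited table ended the calls of SGSH and GAA. GAA also lost its call when its probes were averaged or tested separately. The highest adjusted p over all alternatives was 0.117 for SGSH, 0.0677 for PSAP and 0.144 for GAA. Genes of autophagosome fusion gave 2 higher and 1 lower of 25, or 12% called against 24.6% of all genes. These were CHMP2A (1.03, SE 0.26) and VPS41 (0.93, SE 0.21) as higher and VPS4B (-1.24, SE 0.25), which also lies on chromosome 18, as lower. CHMP2A lost its call without control replicate 1, 2 or 3, with median centring and with dim probes kept. VPS41 lost it without replicate 3 of the arrays labelled SLAMF1 shRNA, with median centring and when its probes were averaged. VPS4B lost it without control replicates 2 or 3. The highest adjusted p over all alternatives was 0.109, 0.130 and 0.0508 in that order.

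**Figure D4:**
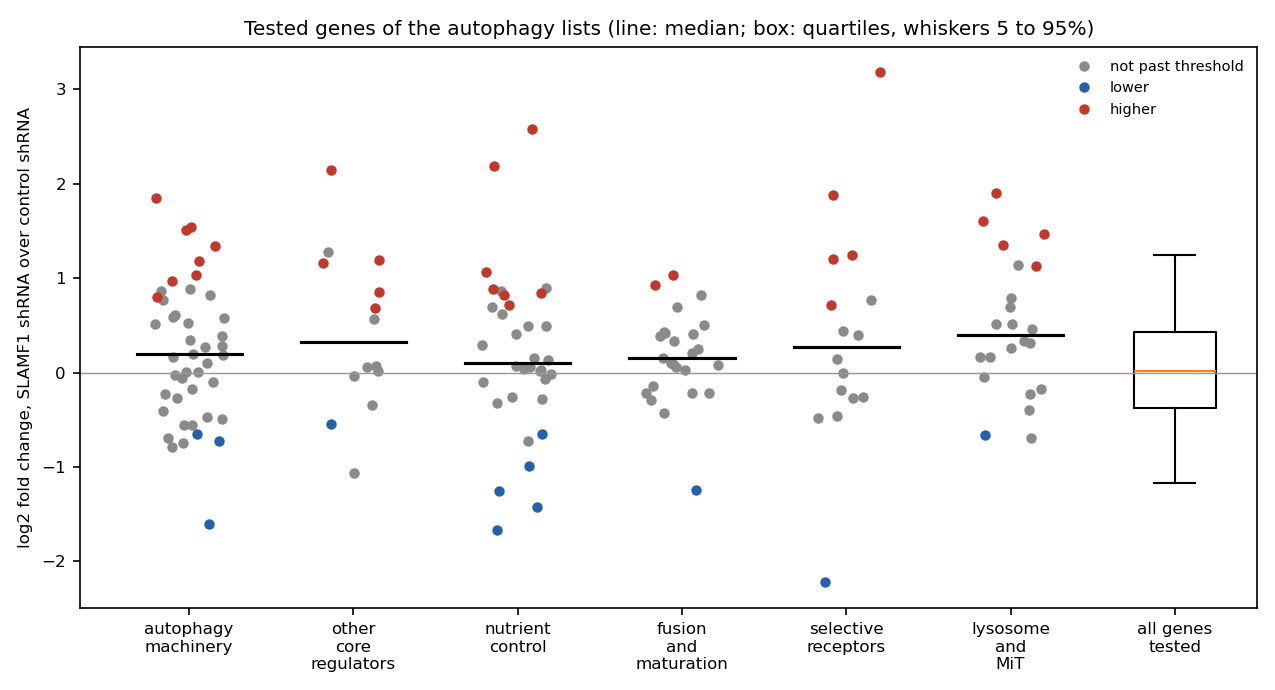
Log2 fold change, arrays labelled SLAMF1 shRNA over control shRNA, of the tested genes of the autophagy machinery and of 5 further lists, each dot a gene with red higher and blue lower past the threshold and the line the list's median, beside a box of all 10832 tested genes. The box spans the quartiles and its whiskers the 5th to 95th percentiles. List medians lie between 0.10 and 0.40, against 0.02 for all genes, and CCPG1 at 3.18 is the highest dot. The lists were chosen with earlier results of these data known.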

How the data were processed

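Both sets of 3 Mec-1 samples were compared. The deposited probe signal intensity, 1 value per probe and array, is linked to GenomeStudio by the submitters' processing notes, whose version is not given in the sources used here. The lowest signals were 69.2 to 75.2, so background had not been subtracted. Per the file headers, every signal has its own detection p-value. A second deposited intensity table, its normalization not stated in the labels, had 100% of values within 1% of the quantile-normalized signals and served as an alternative. Mean intensity was 208 to 294 per array over an inferred background of 82.1 to 89.1. The number of arrays limits the precision.

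R 4.3.3 and limma 3.58.1 were used. Background was corrected with nec (offset 16, background from the detection p-values), followed by log2 and quantile normalization. The offset understates fold changes of dim genes. Probes with a detection p-value under 0.05 on at least 3 arrays were kept (19073), and the brightest named probe of a gene was tested with lmFit and eBayes, without covariates, adjusted over 10832 genes by Benjamini-Hochberg (threshold 0.05). Symbols came from the platform annotation, updated by gene identifier against RefSeq GRCh38.p14 for 30074 of 30113 named probes. The fit was tested on simulated data. Values are given for every called gene and, of the others, for the largest changes of each step. From further lists up to 5 called genes are named, with RRAGB and RRAGC besides. The members and lists were chosen with earlier results of these data known. Of the further lists, 7 genes had no named probe and were not analysed here. Alternatives were background, offset, scaling, filter, probe rule, variance model, replicate block and leaving out each array. Same-numbered arrays of the 2 groups had deviations correlated at -0.20, -0.14 and 0.21, so the numbers were not taken as pairs.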

Additional observations from a re-analysis of the deposited data

How the results depend on the processing

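Of the 11 called autophagy genes, 6 kept their call in every alternative that tested them (WIPI1, WIPI2, ATG12, MAP1LC3B, OPTN and PIK3C3), and 8 of the 33 uncalled genes were called in at least 1 of 17 alternatives. No called value changed sign. Higher autophagy genes numbered 6 to 13 over the fits that left out 1 array each, the 13 without replicate 2 of the arrays labelled SLAMF1 shRNA, against 8 with all arrays. Lower autophagy genes numbered 1 to 5 over the same fits, against 3: 5 without replicate 2 of the arrays labelled SLAMF1 shRNA, and 1 without replicate 3 of that set or without control replicates 1 or 3. A block on replicate number gave 1 lower and 9 higher autophagy genes, and 6 lower and 21 higher further pathway genes. The same numbers did not mark shared samples by the labels. Further pathway genes higher numbered 12 with median centring, against 24, and 12 to 32 over the fits that left out 1 array, with 15 without control replicate 1 and 12 without control replicate 3. Those lower numbered 5 when detection p had to be under 0.01 on every array, which tests fewer genes, against 9, and 3 to 10 over the fits that left out 1 array, with 5, 3 and 3 without control replicates 1, 2 and 3. Apart from fewer arrays or genes, the cause was not tested. Median centring put the median of all genes at -0.14, against 0.02, and that of the autophagy genes at -0.04, against 0.20, and the share of higher genes among all calls at 42.5%, against 52.5%. Over all genes, calls numbered 675 to 2103 higher and 622 to 1889 lower when 1 array was left out, against 1400 and 1269. ATG5, ATG2B, MAP1LC3A and GABARAPL1 were detected on 1 of 3 arrays labelled SLAMF1 shRNA and on 3 of 3 control arrays, and ATG13 on 3 and 1, so that low signal limits their differences.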
